A study of Coturnix japonica with 24 samples.

Results

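The nuclear genes of the mitochondrial respiratory chain were followed in the mediobasal hypothalamus of male quail over a day and night in short and long days. Genes were taken by name from the platform annotation: every gene whose probe sets carry a single symbol beginning with NDUF, UQCR or ATP5, with COX and a digit from 4 to 8, or reading SDHA to SDHD. This gave 74 genes of the 13009 named on the array. They were sorted by complex into 33 genes of complex I, 8 assembly factors of complex I, 2 of complex II, 8 of complex III, 9 of complex IV and 14 of complex V. Each gene was read from its brightest probe set, the one with the highest mean over all arrays. None of the genes encoded in mitochondrial DNA was annotated on the array (0 genes), so the values below concern nuclear-encoded subunits and helpers only.

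The respiratory chain is a set of protein complexes in the inner mitochondrial membrane. Complex I takes electrons from NADH and complex II takes them from succinate. Complex III passes them on to cytochrome c, and complex IV hands them to oxygen. Complexes I, III and IV pump protons across the membrane, and complex V, the ATP synthase, lets the protons return and makes ATP. Neurons depend heavily on this route for the ATP that restores ion gradients after firing and synaptic transmission. The mediobasal hypothalamus is the region in which quail turn day length into a reproductive response.

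The birds were male quail that had lived for 4 weeks in short days, with 6 h of light a day followed by 18 h of darkness, and were 8 weeks old when they were divided. One group stayed there, and the other went to long days, with 20 h of light and 4 h of darkness, each for 2 weeks. All birds therefore shared the same short-day history, and the labels name no genetic or drug treatment. Sampling took place every 4 h in both photoperiods, at zeitgeber times (ZT) 2, 6, 10, 14, 18 and 22. ZT was read as hours after lights on, since the labels do not define it. Each array received the pooled RNA of 3 birds, and 2 arrays per group gave 24 arrays in 12 groups, 12 per photoperiod. The p-values below measure the spread between such pools, not between birds.

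The arrays carry chicken probes, so quail transcripts that differ in sequence can read low, and the level of one gene is not compared with that of another. Array medians as deposited ran from 10.92 to 21.05 intensity units, with the first array brighter than the second in 12 of 12 groups, and each array was centred on its median. Between 38.1% and 49.63% of probe sets stood above background on an array, background being the 95th percentile of 746 probe sets without the chicken prefix. Among the fixed neuron markers, 12 of 13 tested were above background on all 24 arrays and none passed the photoperiod test. The photoperiod labels were checked on DIO2, the thyroid hormone-activating deiodinase of tanycytes, which read 63.0 ± 21.1 in short days and 240 ± 36.7 in long days (SD, n = 12 arrays each; log2 change 1.97 ± 0.14 SE, limma adjusted p = 9.741e-09). Markers of tissue that may lie next to or within the sample were also present. Above background on every array were 2 of 9 anterior pituitary markers tested and 1 of 3 striated muscle markers tested. So were 2 of 7 choroid plexus markers tested and 4 of 6 blood cell markers tested. Of the 9 pituitary markers tested, 2 were called higher and 1 lower in long days, where the photoperiod test called 0.132% of all probe sets. Their log2 changes ran from -1.04 to 4.54. Whether these calls reflect the amount of pituitary tissue or a response to day length was not tested. The part of these tissues in the results below was not tested either.

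Most respiratory chain genes gave a signal above background. After the dimmest 25% of probe sets were left out, 70 of the 74 genes were tested, and 51 of the 70 were above background on all 24 arrays. That is 72.9% of the tested genes, against 26.5% of all 28829 probe sets tested. The latter include dimmer probe sets of the same genes. Over the brightest probe set of each of the 11830 named genes tested, chosen as for the members, it was 41.4%. By complex, the 51 comprised 23 of 31 tested genes of complex I, 4 of 8 assembly factors, both genes of complex II, 6 of 8 of complex III, 6 of 8 of complex IV and 10 of 13 of complex V. The 4 genes left out as dim were NDUFA7, NDUFS5, COX7B and ATP5E, which were above background on 2, 3, 0 and 0 arrays. NDUFA7, NDUFS5 and COX7B are accessory subunits and ATP5E is the epsilon subunit of the ATP synthase. Of these 4 genes nothing can be said beyond their low signal.

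No respiratory chain gene passed the test between long and short days. In the mean over the 6 times, 0 of the 70 genes passed limma's test at an adjusted p under 0.05, where 38 of 28829 probe sets did (0.132%). At that share a count of 0 does not set the 70 genes apart from the rest of the array. At an unadjusted p under 0.05 there were 6 genes, or 8.57%, against 5.42% of all probe sets: NDUFB10 higher, and NDUFB6, NDUFS4, NDUFAF8, UQCR11 and COX8A lower in long days. The smallest adjusted p of the 70 was 0.794. The median log2 change, long minus short days, was -0.02 over the 70 genes and -0.0077 over all probe sets. By complex the median was -0.02 in complex I, -0.03 in its assembly factors, -0.11 in complex II, -0.04 in complex III, -0.01 in complex IV and -0.00059 in complex V. Estimates were above 0 in 27 of 70 genes, or 38.6%, against 48.9% of all probe sets. Among those above background on every array it was 19 of 51, or 37.3%, against 46.3%. The split turned with the scaling, to 41 of 70 above 0 after quantile normalization. The median of the 70 genes was likewise -0.06 on the first arrays of the groups alone and 0.06 on the second arrays alone. In a bulk sample such as this, fewer cells of a type and less RNA per cell cannot be told apart.

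The data also bound how large a missed difference in intensity could be in the mean over the 6 times. They give no such bound for a difference at a single time, where standard errors were larger. The 95% interval of the photoperiod change lay inside a 1.5-fold change in either direction for 44 of 70 genes (62.9%), against 24% of all probe sets tested and 36.5% of the brightest probe sets of named genes. Among probe sets above background on every array it did so for 42 of 51 genes (82.4%) against 74.5%. A tighter bound of 1.3-fold held for 23 of the 70 genes (32.9%) against 6.13%, all of them among the 51 (45.1%, against 23.1%). Without centring the arrays, 20 rather than 44 genes had an interval inside 1.5-fold. The bounds followed brightness: the median standard error was 0.15 on the log2 scale in the 51 genes above background throughout and 0.32 in the other 19. Estimates ran from -0.45 to 0.47 in the 51 and from -0.89 to 0.74 in the 19. The larger estimates therefore sat mostly on genes whose signal fell into background on some arrays.

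**Figure D1:**
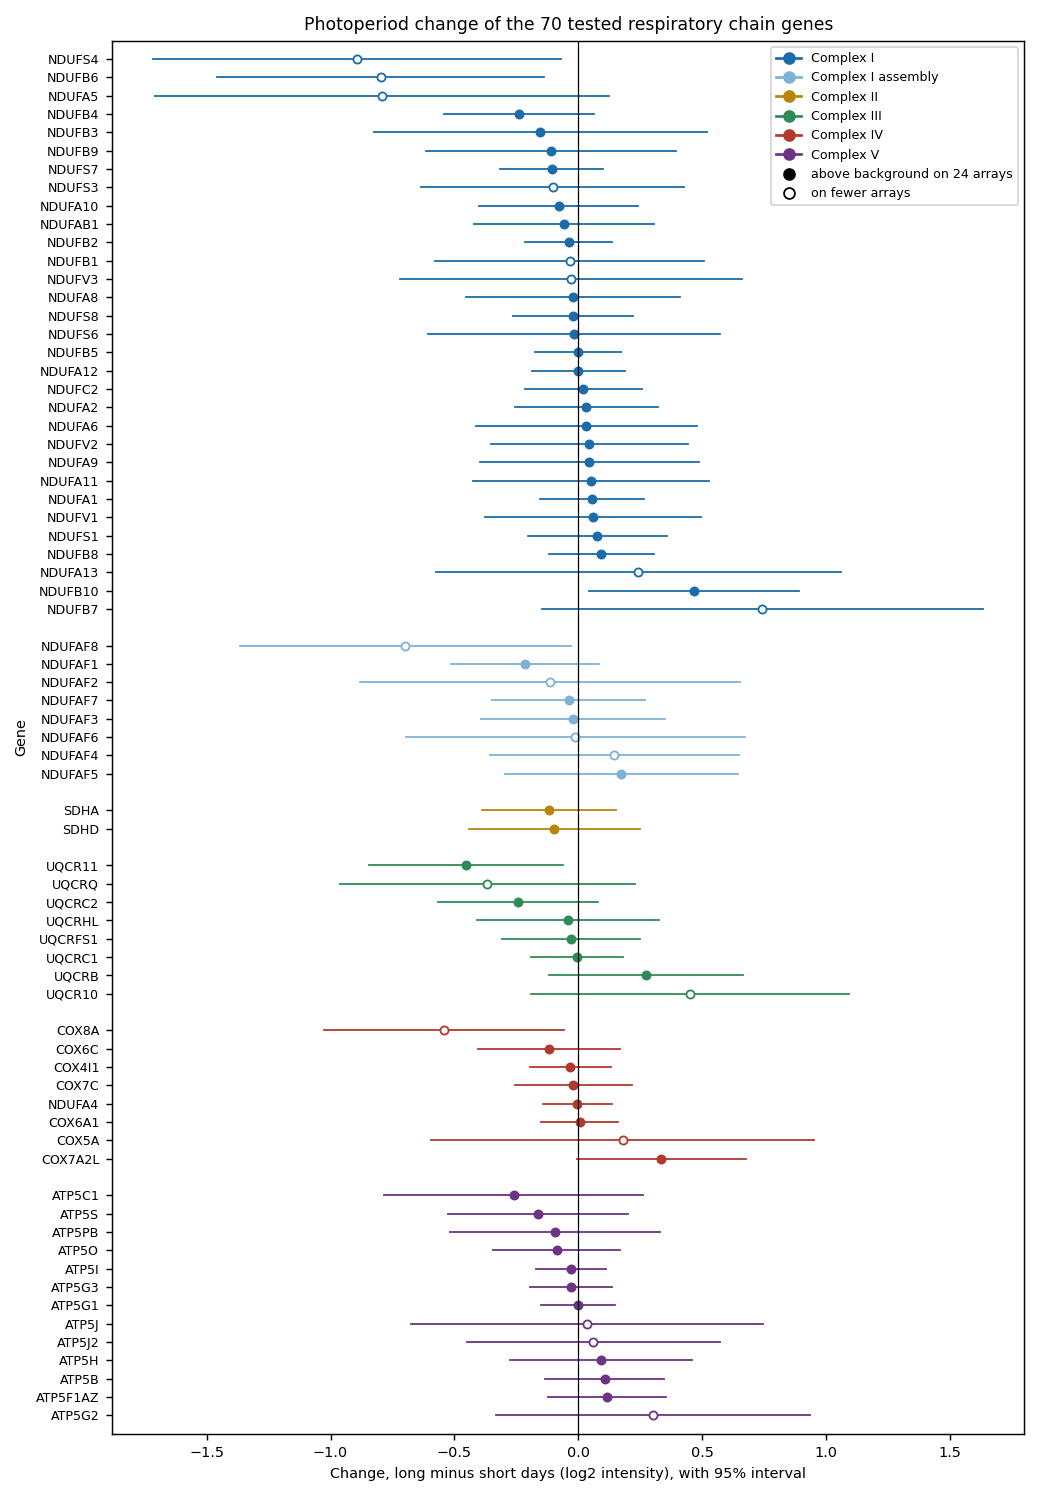
Photoperiod change of each of the 70 tested genes, long minus short days as the mean over 6 times (log2 intensity), with its 95% interval. Genes are grouped by complex, filled points are genes above background on 24 arrays and open points those above it on fewer. Most filled points lie close to 0 with short intervals, and the widest intervals belong to open points.

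In complex I, 14 of 31 tested genes had estimates above 0 and 17 below. NDUFV1, NDUFV2, NDUFS1, NDUFS3, NDUFS7 and NDUFS8 are core subunits of the arm that passes electrons from NADH towards ubiquinone. Their changes ran from -0.11 ± 0.10 (SE) for NDUFS7 to 0.08 ± 0.14 for NDUFS1. NDUFS7 read 547, 665 and 743 (lowest, median and highest of 12 arrays) in short days and 476, 595 and 741 in long days, so its groups overlapped almost fully. NDUFS1, the largest iron-sulphur subunit, read 427, 515 and 755 in short days and 360, 549 and 1130 in long days, where a single array at ZT2 gave the highest value. NDUFS3 was above background on 21 arrays and the other 5 core genes on all 24.

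The accessory subunits of complex I, which surround the core and are needed for its assembly and stability, held the largest estimates. NDUFB10, a membrane-arm subunit, read 19.3, 43.9 and 70.3 in short days and 35.4, 56.3 and 101 in long days. Its groups overlapped over most of their range, and the change was 0.47 ± 0.20 (unadjusted p = 0.0323, adjusted p = 0.872). It was the complex I gene with the smallest p among those above background on all arrays. NDUFB6, of the same arm, was above background on 9 arrays and read 1.62, 17.5 and 32.8 in short days and 1.55, 8.98 and 21.3 in long days (change -0.80 ± 0.32, adjusted p = 0.794). NDUFS4, a subunit of the matrix arm whose loss causes a neurological disease in humans and mice, was above background on 3 arrays (-0.89 ± 0.40, adjusted p = 0.879). NDUFA5 (-0.79 ± 0.44) and NDUFB7 (0.74 ± 0.43, the highest estimate of all tested members) were above background on 2 and 5 arrays. The estimates of NDUFB6, NDUFS4, NDUFA5 and NDUFB7 thus rested mostly on signals at background level.

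At the other end were bright accessory subunits with narrow intervals. NDUFB5 read 1164, 1765 and 2064 in short days and 1438, 1710 and 1982 in long days, with a 95% interval of -0.18 to 0.17. NDUFA12 read 1441, 1986 and 2790 against 1795, 2029 and 2509, with an interval of -0.19 to 0.19. NDUFB2 and NDUFB8 had intervals of -0.21 to 0.14 and -0.12 to 0.31. For these genes a change of 1.3-fold either way was outside the interval. NDUFAB1, the mitochondrial acyl carrier protein, which also serves in fatty acid and lipoic acid synthesis, read 558, 1014 and 1291 in short days and 230, 1048 and 1202 in long days. Its lowest long-day value came from the second array at ZT14, described further on.

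The assembly factors of complex I build the complex but are not part of it. NDUFAF1, which acts on an early intermediate of the membrane arm, read 86.4, 122 and 150 in short days and 77.8, 104 and 140 in long days. Its mean was lower in long days by 0.21 ± 0.14 (adjusted p = 0.970). NDUFAF8, a partner of NDUFAF5, read 22.2, 31.6 and 55.7 in short days and 1.74, 25.8 and 43.3 in long days and was above background on 20 arrays (-0.70 ± 0.32, adjusted p = 0.893). NDUFAF5, which modifies the core subunit NDUFS7, had an estimate of the opposite sign, 0.17 ± 0.23. No assembly factor passed the test in either direction.

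Complex II was represented by SDHA, the flavin-bearing subunit that oxidises succinate in the citric acid cycle, and SDHD, a membrane anchor. SDHA read 275, 373 and 526 in short days and 240, 329 and 559 in long days, a change of -0.12 ± 0.13. SDHD read 248, 436 and 604 against 264, 378 and 467, a change of -0.10 ± 0.17. Neither difference exceeded the spread between arrays (adjusted p = 0.989 and 0.991).

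In complex III the 8 tested genes had estimates above 0 in 2 cases. UQCR11, a small subunit, read 59.5, 86.7 and 115 in short days and 31.6, 66.4 and 91.1 in long days. The change was -0.45 ± 0.19 (unadjusted p = 0.0256, adjusted p = 0.841), at -0.34 on the first arrays of the groups alone and -0.57 on the second. Among members above background on all arrays this was the smallest p, and it did not pass after adjustment over all probe sets. UQCRC2, a core protein of the complex, also had a lower mean in long days in its brightest probe set (61.7, 80.4 and 109 against 44, 71.6 and 85.5, change -0.24 ± 0.16). Its 2 dimmer probe sets, above background on 16 and 4 arrays, gave 0.37 ± 0.23 and 0.18 ± 0.54. The probe sets of this gene thus disagreed in sign, and the mean of all of them gave 0.10. UQCRC1, the other core protein, read 1476, 1945 and 2199 against 1594, 1888 and 2423 and had an interval of -0.19 to 0.18. UQCR10, another small subunit, had an estimate of 0.45 ± 0.31 (adjusted p = 0.976), which was 0.19 without the second short-day array at ZT10, where it read 11.2, and 0.71 without the first.

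Complex IV held some of the most steady members. NDUFA4, once assigned to complex I and now counted with cytochrome c oxidase, read 4114, 4448 and 4831 in short days and 4023, 4472 and 4986 in long days. Its change was -0.0039 ± 0.068, with an interval of -0.14 to 0.14. COX4I1, the widely expressed isoform of the largest nuclear-encoded subunit, read 2402, 2713 and 3074 against 2284, 2631 and 3189 (change -0.03 ± 0.08). COX6A1, the isoform of non-muscle tissue, read 2527, 2769 and 3268 against 2452, 2781 and 3398 (0.0050 ± 0.076). Each of these 3 changes was smaller than its standard error, and its sign changed with the scaling or the pseudocount. Other isoforms of these subunits were not analysed here, and nor was COX7A2, whose probe set carries more than one symbol.

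The remaining members of complex IV gave less precise values. COX8A, the widely expressed form of the smallest subunit, read 39.9, 67.2 and 93.0 in short days and 12.7, 51.3 and 82.8 in long days. It was above background on 22 arrays, and its change was -0.54 ± 0.23 (unadjusted p = 0.0304, adjusted p = 0.861). COX7A2L, known in mammals as a factor that joins complexes III and IV into a supercomplex, read 58.7, 122 and 164 against 78.1, 146 and 169 (0.34 ± 0.16, adjusted p = 0.917). COX6C read 858, 1139 and 1836 against 630, 1107 and 1510 (-0.12 ± 0.14). In each of these genes the ranges of the photoperiods overlapped.

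In complex V no gene had an unadjusted p under 0.05 for the photoperiod effect, a level reached by 5.42% of all probe sets. The same held for complex II. Of the 13 estimates in complex V, 6 were above 0. ATP5G1, ATP5G2 and ATP5G3 encode the same mature c subunit of the proton-driven rotor ring in mammals, from separate genes. ATP5G1 read 1873, 2097 and 2341 in short days and 1832, 2116 and 2521 in long days (-0.00059 ± 0.072). ATP5G3 read 1516, 2060 and 2332 against 1771, 1979 and 2179 (-0.03 ± 0.08). Both had 95% intervals inside 1.3-fold, and the sign of both turned after quantile normalization. ATP5G2 was above background on 18 arrays, and its change of 0.30 ± 0.31 could not be bounded as tightly. Of the catalytic head, the alpha subunit ATP5F1AZ, annotated as the gene on the avian Z chromosome, read 1551, 3837 and 4686 against 2596, 3643 and 4567 (0.12 ± 0.12). The catalytic beta subunit ATP5B read 872, 984 and 1380 against 810, 1142 and 1595 (0.11 ± 0.12). ATP5C1, the gamma subunit that forms the central shaft, read 849, 1559 and 2289 against 294, 1299 and 2138 (-0.26 ± 0.25, adjusted p = 0.989).

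The photoperiod difference was then taken at each time on its own, from 2 arrays against 2. Again 0 of 70 genes passed at any of the 6 times. Over all probe sets the test called 0.00694%, 0.0139%, 0.0139%, 0.0277%, 0.0173% and 0.0104%, in order of time from ZT2 to ZT22. Counts of 0 among 70 genes therefore do not set the members apart at any time. At an unadjusted p under 0.05 the members numbered 3, 2, 0, 4, 1 and 2 in the same order, or at most 5.71%. Of all probe sets, 4.08%, 4.16%, 4.43%, 5.41%, 4.12% and 4.41% fell under that level. Besides the genes described next, they were NDUFS1 (0.75) and COX8A (-1.20) at ZT2, NDUFAB1 (-1.21), NDUFB4 (-0.78) and UQCRQ (-1.66) at ZT14 and UQCRQ (-1.5) at ZT22, as log2 changes. UQCRQ was above background on 17 arrays and at ZT14 read 33.8 and 72.4 in short days and 30.7 and 6.60 in long days. COX8A read 49.1 and 12.7 in long days at ZT2. From ZT2 to ZT22 the median change of the 70 genes was -0.05, -0.10, -0.02, -0.07, 0.02 and 0.12. All probe sets gave -0.03, -0.04, 0.03, -0.05, -0.02 and 0.06, which follow the members in sign at 4 of the 6 times.

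At each time the gene with the smallest p was as follows. At ZT2 it was ATP5H, the d subunit of the stalk, with 324 and 86.9 in short days and 304 and 372 in long days (0.99 ± 0.43). Its change was 0.05 without the second short-day array and 1.93 without the first. At ZT6 it was NDUFB6, with 22.3 and 24.8 on the short-day arrays and 8.24 and 1.55 on the long-day arrays (-2.20 ± 0.78). NDUFB10 had the opposite sign at the same time, with 28.4 and 29.2 in short days and 101 and 59.0 in long days (1.38 ± 0.50). NDUFB6 and NDUFB10 did not pass at ZT6 (adjusted p above 0.999 for both). At ZT10 it was NDUFS4 (-1.82 ± 0.97), at ZT18 NDUFAF8 (-2.00 ± 0.79) and at ZT22 COX8A (-1.28 ± 0.57), all of them genes that were not above background on every array. COX8A read 46.6 and 14.8 in long days at ZT22, and its change was -0.50 without the second of these and -2.06 without the first. Leaving out single arrays likewise gave -3.04 to -1.36 for NDUFB6 at ZT6 and -2.63 to -1.01 for NDUFS4 at ZT10. At ZT14 it was ATP5F1AZ, which read 2747 and 1551 in short days and 3126 and 4231 in long days (0.82 ± 0.28, unadjusted p = 0.00831, adjusted p = 0.867). Its change was 0.40 without the second short-day array and 1.23 without the first.

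**Figure D2:**
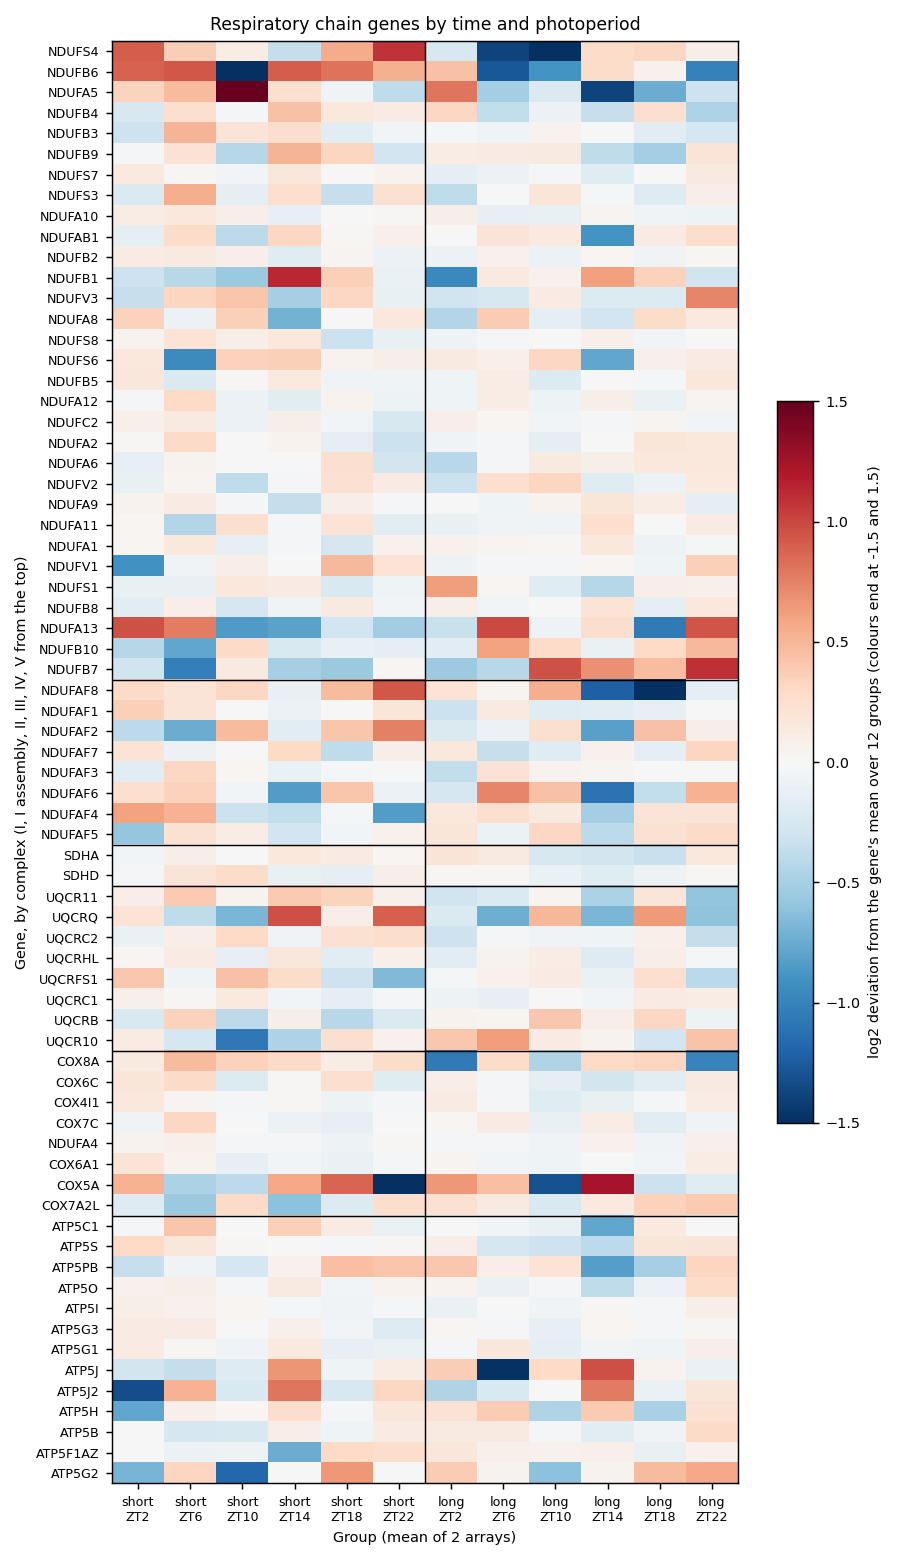
Group means of the 70 tested genes over 6 times in short days (left) and long days (right), as the log2 deviation of each group from the gene's own mean over 12 groups (colour). Rows of bright genes such as NDUFA4 and ATP5I stay pale throughout, and the strongest colours belong to dim genes such as NDUFS4, NDUFB6 and COX5A.

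Time of day was tested in each photoperiod, first as any difference among the 6 times and then as a 24 h cosine. In short days 0 of 70 genes passed either test, where each called 0.0208% of all probe sets. In long days 0 of 70 passed either, where both called 0% of probe sets. The interaction of time and photoperiod and the difference between the cosines also called 0 of 70 genes, against 0.00694% of all probe sets for each. With so few calls over the whole array, these counts of 0 do not set the members apart either. At an unadjusted p under 0.05 the cosine gave 2 genes in short days (2.86%, against 4.62% of all) and 5 in long days (7.14%, against 4.03%). The test of any difference in time gave 4 genes in short days (NDUFB6, UQCRFS1, ATP5F1AZ and ATP5J2) and 1 in long days (COX8A), against 3.7% and 3.42% of all probe sets. The interaction gave 0 genes, against 3.31%, and the cosine difference gave 2, against 4.18%. The median fitted amplitude, which is the distance from mean to peak, was 0.16 in short days and 0.15 in long days over the 70 genes. It was 0.32 and 0.31 over all probe sets tested. Among probe sets above background on every array it was 0.12 and 0.12 for the members and 0.17 and 0.15 for all.

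UQCRFS1, the Rieske iron-sulphur protein of complex III, had the smallest p in short days. Its 2 short-day arrays read 1472 and 1162 at ZT2, 1338 and 675 4 h later, then 1435 and 1237 (ZT10), 1059 and 1355 (ZT14), 589 and 1066 (ZT18) and finally 510 and 760 (ZT22). Values were mostly high from ZT2 to ZT14 and low at ZT18 and ZT22, with the second arrays at ZT6 and ZT18 as exceptions. The cosine had an amplitude of 0.40 ± 0.15 with its peak at 8.93 h (unadjusted p = 0.0344), and the test of any difference in time gave an unadjusted p = 0.0154. After adjustment both were above 0.999. In long days the amplitude was 0.13 ± 0.15, and the difference between the photoperiods was not significant (unadjusted p = 0.374). A dimmer probe set of the gene, above background on 21 arrays, gave another picture. Its cosine had an amplitude of 0.65 in short days, peaking at 2.34 h (unadjusted p = 0.142). In long days its amplitude was 1.2, peaking at 3.08 h (unadjusted p = 0.00308). The adjusted p of this probe set was above 0.999 in both photoperiods. The 2 probe sets therefore differed in which photoperiod had the larger amplitude.

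The other short-day gene under that level was ATP5F1AZ, peaking at 23.2 h with an amplitude of 0.32 ± 0.12 (unadjusted p = 0.0453). It read 3871 and 4686 at ZT18 and 3902 and 4423 at ZT22, against 2747 and 1551 at ZT14. In long days its arrays ran from 2596 to 4567 with an amplitude of 0.08 ± 0.12. The leading genes of the other complexes had an unadjusted p above 0.05 in short days: NDUFB1 of complex I (amplitude 0.64 ± 0.26), NDUFAF4 (0.45 ± 0.23), SDHD (0.16 ± 0.15) and COX6A1 (0.12 ± 0.07). With the mean of all probe sets of a gene the amplitude was 0.033 for NDUFAF4 and 0.57 for COX6A1, and for SDHD it was 0.056 without the second ZT18 array.

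In long days the 5 genes were NDUFS1, NDUFS4, NDUFAF8, SDHA and ATP5PB. NDUFS1 read 660 and 1130 at ZT2, 771 and 420 (ZT6), 528 and 456 (ZT10), 477 and 360 (ZT14), 717 and 502 (ZT18) and 603 and 571 (ZT22). Its pair was highest at ZT2 and lowest at ZT14, and the arrays of a pair were far apart at ZT2 and ZT6. The amplitude was 0.39 ± 0.13, peaking at 1.06 h (unadjusted p = 0.0159). Dimmer probe sets of NDUFS1, above background on 19 and 5 arrays, had long-day cosines peaking at 16.99 h and 23.33 h (unadjusted p = 0.356 and 0.466). SDHA peaked at 2.24 h with an amplitude of 0.30 ± 0.12 (unadjusted p = 0.0447). Its long-day arrays at ZT2 read 559 and 301, and the amplitude was 0.22 without the first of these and 0.41 without the second. ATP5PB, the b subunit of the peripheral stalk that holds the catalytic head still, peaked at 2.99 h, with 0.54 ± 0.19 (unadjusted p = 0.0310). NDUFAF8 peaked at 5.08 h with an amplitude of 0.90 ± 0.31 (unadjusted p = 0.0246). NDUFS4, mostly at background, had 1.02 ± 0.38 (unadjusted p = 0.0335). All 5 adjusted p-values were above 0.999. NDUFS1 and ATP5PB were also the 2 genes with an unadjusted p under 0.05 for the difference between the cosines (unadjusted p = 0.0274 and 0.0242).

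**Figure D3:**
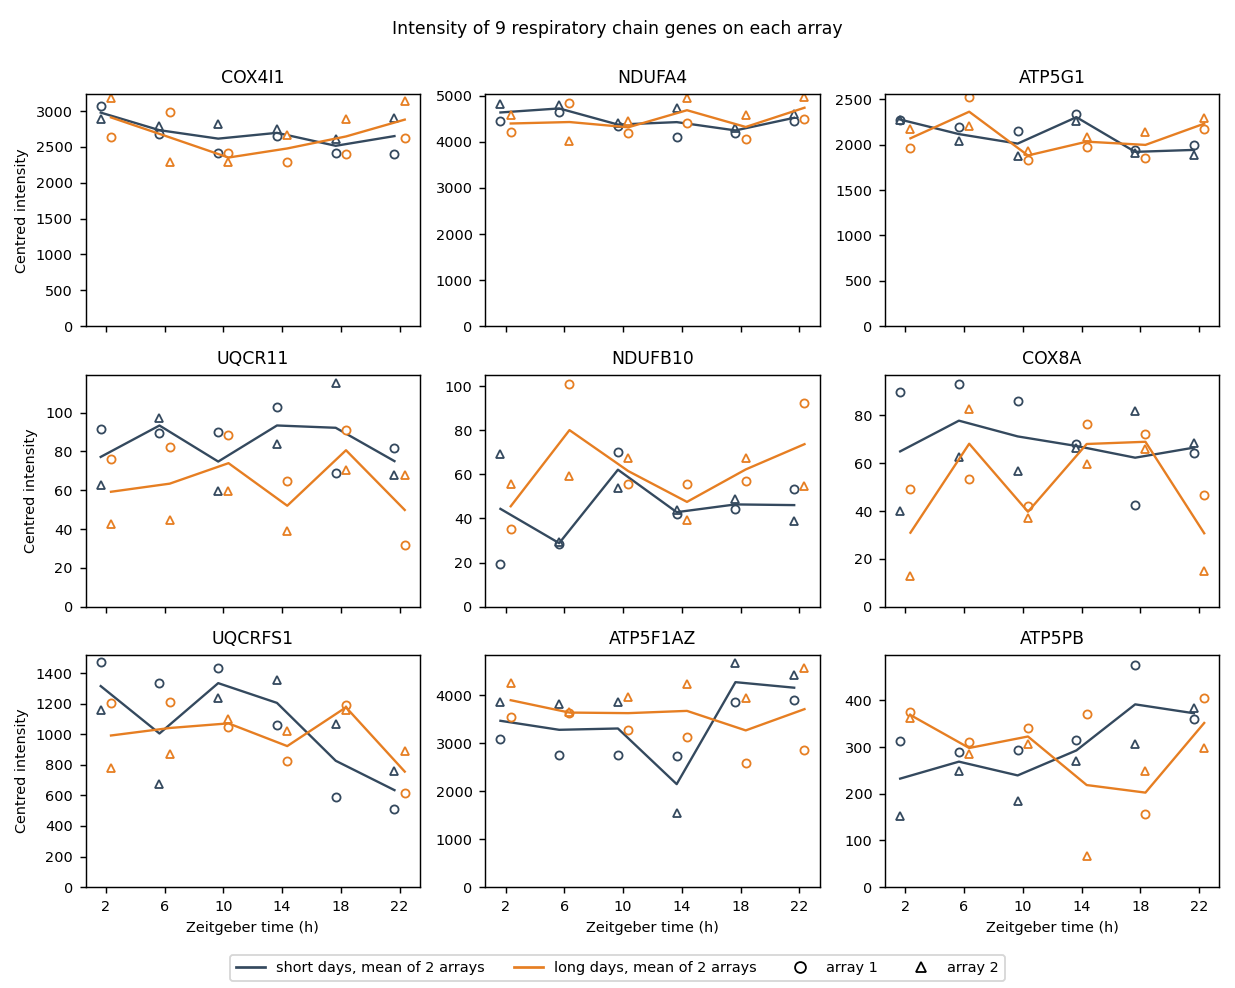
Centred intensity (linear axis from 0) of 9 genes on each array against zeitgeber time, in short days (dark) and long days (orange); circles are the first arrays, triangles the second, and lines join the means of the 2 arrays. COX4I1, NDUFA4 and ATP5G1 are nearly flat, while UQCRFS1 falls late in the short-day dark phase and ATP5PB has 1 low array at ZT14 in long days.

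Each complex was also summarised as a median over its tested genes on each array, each gene first set to its own mean over the 24 arrays. For all 70 genes, the mean of the 2 arrays ran from -0.03 at ZT10 to 0.14 at ZT6 in short days and from -0.07 at ZT10 to 0.09 at ZT22 in long days. The spread between the 2 arrays of a group (SD) was 0.15, close to the span of these means. Complex IV and complex V had the smallest spread, 0.12 and 0.11, and time means between -0.16 and 0.17 and between -0.09 and 0.13. Complex II, with 2 genes, had a spread of 0.33, and complex III had 0.27. The lowest array for the members as a whole, for complex II and for complex III was the second long-day array at ZT14. The highest for the members was the first short-day array at ZT6.

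**Figure D4:**
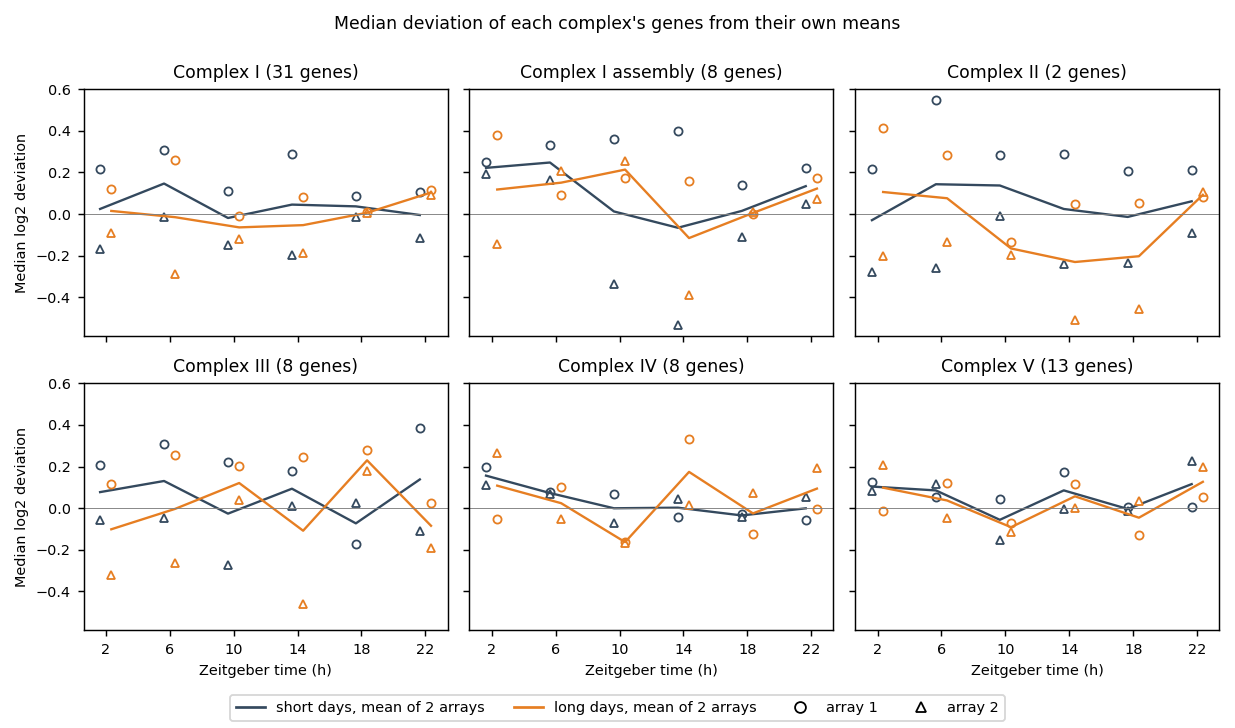
Median log2 deviation of each complex's tested genes from their own means, on each array, against zeitgeber time (short days dark, long days orange; circles first arrays, triangles second arrays; lines join the means of the 2 arrays). In complexes I, II and III most circles lie above the triangles of the same group, and in complexes IV and V circles and triangles are closer.

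Arrays of a group differed in a way that ran through many groups. Over the 70 genes the first arrays were higher than the second by a median of 0.24 on the log2 scale after centring, against 0.16 over all probe sets. Among probe sets above background on every array it was 0.25 for the members and 0.24 for all, so the members did not stand out. By complex, over the tested genes, the median was 0.21 in complex I, 0.42 in complex II and 0.30 in complex III. It was 0.07 in complex V and -0.08 in complex IV. Among the 51 genes above background throughout, NDUFA10, NDUFA9, NDUFB3 and ATP5C1 were higher on the first array in 12 of 12 groups (7.84%, against 5.3% of all such probe sets). ATP5I, the e subunit of the ATP synthase, was higher on the second in 12 of 12 (1.96%, against 0.249%). NDUFB3, an accessory subunit of complex I, read 844 ± 239 on the first arrays and 314 ± 59.3 on the second (SD, n = 12 arrays each). ATP5C1 read 1916 ± 248 and 1036 ± 300. The log2 ratio of 3′ to 5′ control probes for GAPDH was higher on the second array in 12 of 12 groups (0.06 to 0.24 on the first arrays, 0.26 to 0.37 on the second). The share of probe sets above background was lower on the second array in 12 of 12 (38.1% to 45.62%, against 45.56% to 49.63%). Their part in the gap was not tested. The photoperiods share these arrays equally, so the photoperiod means are balanced for it. The gap enters the error of the test, since the model has no term for it.

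The second long-day array at ZT14 stood apart from the rest. It had the lowest median rank correlation with the other arrays (0.713) and the highest log2 ratio of 3′ to 5′ control probes for ACTB (2.21) and for GAPDH (0.37). The second short-day array at ZT14 came close to it for GAPDH (0.36). The part of RNA quality in the low values given next was not tested. On the second long-day array at ZT14, ATP5C1 read 294, against 2138 on its partner and 849 to 2289 on the other 22 arrays. ATP5PB read 65.6, against 372 on its partner and 151 to 477 elsewhere. NDUFAB1 read 230, against 1107 on its partner and 558 to 1291 elsewhere. NDUFS6, an accessory subunit of complex I, read 273, against 1197 and 174 to 1651. The first 3 genes had no value as low on any other array, whereas NDUFS6 did.

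Of the 51 genes above background throughout, 9 were lower on that array than on its partner by more than 1 on the log2 scale (17.6%, against 20.1% of all such probe sets). Calls at ZT14 depended on which array was kept. With the first ZT14 long-day array left out, the low one stood alone and was assumed to vary like the arrays of the other groups. In that setting 4 of 70 genes passed at ZT14: NDUFAB1 (-2.34, adjusted p = 0.000401), ATP5PB (-2.13, 0.00823), ATP5C1 (-2.57, 0.0182) and NDUFAF8 (-2.99, 0.0308). Of all probe sets 344 then passed at ZT14 (1.19%), against 8 with both arrays. NDUFAB1 and ATP5PB also passed the test of time of day in long days (0.323% of all probe sets), and NDUFAB1 the interaction (0.111%). With the low array left out instead, 0 members passed in any of the 3 tests. Without it the photoperiod change was -0.02 for ATP5C1 and -0.39 for NDUFAF8, and the long-day cosine amplitude was 0.24 for ATP5PB and 0.33 for NDUFS1.

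**Figure D5:**
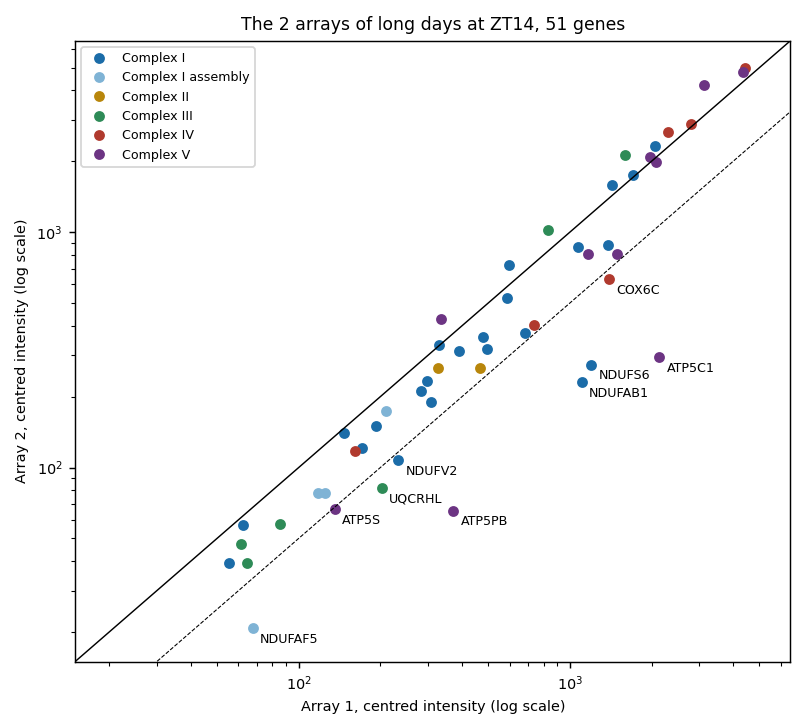
Centred intensity of the 51 genes above background throughout on the 2 long-day arrays at ZT14 (log axes), coloured by complex; the solid line marks equal values and the dashed line values on array 2 at 0.5 of those on array 1. Most genes lie below the solid line, with a median log2 gap (array 2 minus array 1) of -0.41. ATP5C1, NDUFS6, NDUFAB1 and ATP5PB lie farthest below the dashed line.

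Genes of a complex were only weakly correlated across arrays. The mean pairwise correlation over the 24 arrays, among genes above background throughout, was 0.21 in complex I, 0.38 for the pair of complex II, 0.17 in complex III, 0.14 in complex IV and 0.08 in complex V. Over all 51 genes it was 0.14, and over all 7643 such probe sets 0.15. These points share arrays, RNA pools and the gap between first and second arrays.

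Among the genes whose probe sets disagreed were UQCRFS1, UQCRC2, NDUFB4, UQCRB and NDUFA12. The photoperiod change of NDUFB4 was -0.24 ± 0.15 in the brightest probe set and 0.53 ± 0.31 in one above background on 20 arrays. For UQCRB, a small subunit of complex III, it was 0.27 ± 0.19 and, in a probe set above background on 19 arrays, -0.32 ± 0.37. A dimmer probe set of NDUFA12, above background on 17 arrays and singled out after its values were seen, had a short-day cosine amplitude of 1.51, peaking at 6.24 h (unadjusted p = 1.42e-04, adjusted p = 0.240). It read 41.7 and 38.4 at ZT6 and 2.26 and 1.84 at ZT18. The brightest probe set of the gene, above background on all arrays, had an amplitude of 0.12 (unadjusted p = 0.424).

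Genes around the respiratory chain were read from lists. None of them passed the photoperiod test or either cosine test in any list: 0 of 12 electron carriers and related genes, 0 of 26 further assembly factors, 0 of 16 genes of the citric acid cycle, 0 of 13 mitochondrial carriers and channels, 0 of 18 regulators of mitochondrial gene expression, 0 of 24 import and membrane organisation genes and 0 of 64 mitochondrial ribosomal proteins. Of all probe sets, the photoperiod test called 0.132%, the short-day cosine 0.0208% and the long-day cosine 0%. At such shares a count of 0 does not set a list apart from the rest of the array. The median photoperiod changes of the lists ran from -0.06 to 0.08. The smallest p-values belonged to MRPS12, a protein of the small mitochondrial ribosomal subunit that was above background on 16 arrays (0.92 ± 0.26, adjusted p = 0.383), and TOMM7, a small component of the outer membrane import pore. TOMM7 was above background throughout, at a mean of 750 in short days and 948 in long days (0.33 ± 0.11, adjusted p = 0.555). Of the other import genes HSPD1, the mitochondrial chaperonin, had means of 1023 and 809 (-0.33 ± 0.13, adjusted p = 0.779). MRPS34, also of the small ribosomal subunit, was above background on 22 arrays (-0.62 ± 0.24, adjusted p = 0.779).

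Of the 18 regulators, 4 had an unadjusted p under 0.05 for the photoperiod effect, where 5.42% of all probe sets did. The 4 went both ways. ESRRG, a nuclear receptor that activates respiratory chain genes in muscle and neurons, had means of 173 and 217 (0.31 ± 0.12, adjusted p = 0.799). The related receptor ESRRB had an estimate of -0.95 ± 0.38 (adjusted p = 0.779) and was above background on 9 arrays. POLRMT, the RNA polymerase of mitochondria, had -0.81 ± 0.34, and SIRT3, a mitochondrial deacetylase, had 0.71 ± 0.33. Of these 4 genes only ESRRG was above background on every array. Among the electron carriers COQ7, an enzyme of ubiquinone synthesis, had a change of 0.42 ± 0.21, and CYCS, cytochrome c itself, 0.08 ± 0.09. The assembly factor LYRM7, which serves complex III, had -0.26 ± 0.14, and LRPPRC, which stabilises mitochondrial messenger RNA and was above background on 12 arrays, 0.59 ± 0.34. IDH2 of the citric acid cycle had -0.20 ± 0.13. PDK4, a kinase that restrains entry of pyruvate into the cycle, was above background on 3 arrays (0.75 ± 0.44). The outer membrane channel VDAC3 had -0.29 ± 0.24 and MPC2, part of the pyruvate carrier, 0.10 ± 0.10.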

How the data were processed

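Probe set intensity values were used as deposited by the authors, on a linear scale. The submitters' processing notes name GCOS 1.2. Its settings and any scaling of the arrays were not stated there, in the labels or in the file headers. Gene symbols are those of the platform annotation, some of them old, and 44 of the 74 symbols occur in the quail gene table. For 40 members the probe set has an _s, _a or _x suffix and can match related transcripts. No sequences or coordinates are given.

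Each array was centred on its median log2(intensity + 1.497). The pseudocount was 10% of the overall median, and fold changes on this scale understate those of dim genes. Control probe sets (96) and the dimmest 25% of the remaining 38439 were left out, leaving 28829. A model with a mean per group was fitted with limma 3.58.1 (lmFit and eBayes with a variance trend, 12 residual degrees of freedom) in R 4.3.3. The cosine tests came from a separate limma fit with a mean and a 24 h cosine and sine per photoperiod. That fit has other residual degrees of freedom, and its error includes departures from a cosine. There were 13 tests, with Benjamini-Hochberg adjustment over all probe sets in each. Errors after ± are standard errors unless marked SD, and the number of arrays limits the precision. Figures used matplotlib 3.10.9.

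Genes were named by rule: in each complex the 3 with the smallest photoperiod p and the leading gene of each cosine and of the interaction, the leading gene at each time, isoform sets, and the leading 2 of each pathway list. Other members are given as ranges or examples, chosen after their values were seen. The members and lists were chosen with earlier results of these data known. Alternatives covered the pseudocount, the filter, the scaling, the probe set rule, the variance model, array weights, a replicate block and the leaving out of each array.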

Additional observations from a re-analysis of the deposited data

How the results depend on the processing

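The counts of members called stayed at 0 in all 13 tests under 36 of the 37 alternatives that allow a test. The exception was leaving out the first long-day array at ZT14, so that over the leave-one-out fits the count ran from 0 to 4 at ZT14, from 0 to 2 for time of day in long days and from 0 to 1 for the interaction. The replicate numbers were not taken to pair the samples, since not every correlation was over 0.1: over 66 pairs of groups the correlation of same-numbered deviations ran from 0.010 to 0.103, with a median of 0.045 and 3 over 0.1. All were positive, and first and second arrays differed as described above. With the replicate block, 0 members were called in any test, and the photoperiod calls over all probe sets went from 38 to 76.

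The count of members higher in long days was 27, and 41 after quantile normalization. Without centring, 20 members rather than 44 had an interval inside 1.5-fold. The mean of all probe sets turned UQCRC2 to 0.10. The sign also turned for steady genes near 0: under quantile normalization COX4I1 was 0.042, NDUFA4 0.074, ATP5G1 0.051 and ATP5G3 0.029. COX6A1 was -0.00725 at a pseudocount of 16 and -0.027 without centring. ATP5G1 was 6.41e-05 at a pseudocount of 1, 0.00040 at a halved pseudocount and 0.0031 when centred on the 75th percentile. With the mean of all probe sets of a gene, ATP5G1 moved to -0.25 and COX6A1 to 0.24, without a change of sign. The dimmer probe set of ATP5G1, above background on 8 arrays, gave -0.51 ± 0.37. That of COX6A1, above background on 4 arrays, gave 0.48 ± 0.41. Leaving out single arrays gave -0.064 to 0.00024 for COX4I1, -0.034 to 0.044 for COX6A1, -0.026 to 0.018 for NDUFA4, -0.018 to 0.017 for ATP5G1 and -0.062 to 0.0045 for ATP5G3. The other named estimates kept their direction under the 37 alternatives. Within the first arrays alone COX6C (0.041) and CYCS (-0.012), and within the second alone SDHD (0.12), had the opposite sign.

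Single arrays also moved several small photoperiod changes by over 1.5 times. Leaving out 1 array gave 0.037 to 0.31 for NDUFAF5, -0.20 to -0.042 for SDHA, -0.19 to -0.0019 for SDHD, -0.21 to -0.024 for COX6C, -0.50 to -0.022 for ATP5C1, 0.11 to 0.50 for ATP5G2 and -1.01 to -0.39 for NDUFAF8. The long-day amplitude ran from 0.24 to 0.76 for ATP5PB, from 0.27 to 0.44 for NDUFS1 and from 0.22 to 0.41 for SDHA. In short days it ran from 0.22 to 0.43 for ATP5F1AZ and from 0.28 to 0.56 for UQCRFS1.

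The median change of the members was 0.027 after quantile normalization, and among the complexes the median kept its sign under every alternative only in complex II.

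Counts over all probe sets moved more. Over the alternatives the photoperiod calls ran from 12 (no centring) to 76, those at single times from 1 to 344, time of day from 0 to 36 in short days and from 0 to 93 in long days, the interaction from 0 to 32 and the short-day cosine from 2 to 11. NDUFS4 and PDK4 have no value with the lowest 50% of probe sets left out. The 19 tested genes that fell to background on some arrays had a larger median standard error (0.32) than the other 51 (0.15).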
